A study of Homo sapiens with 8 samples.

Results

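The genes described here are 41 genes of autophagy and the lysosome, out of 19775 genes measured on 8 arrays. The arrays are of the human cell line CUTLL1, used as a model of T-cell acute lymphoblastic leukemia (T-ALL). The 41 genes were chosen by name, as core autophagy proteins, autophagy receptors, the TFEB family of transcription factors, and lysosomal enzymes and membrane proteins. Each gene was read from its probe set with the highest mean intensity over the 8 arrays. All 41 were measured. Every culture was exposed for 48 h, and there were 4 groups of 2 arrays. The DMSO group received the vehicle alone. The PF-03084014 group received that compound at 1 microM. It inhibits gamma-secretase, the protease that releases the active part of NOTCH1. The dexamethasone group received 1 microM of that glucocorticoid, and the combination group received both compounds at 1 microM each. All groups are the same cell line, so they describe that line and not T-ALL in general. Arrays are named as a first and a second replica, with no word on separate cultures, so the p-values reflect no more than the spread between these samples, which may be technical.

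Autophagy encloses cytoplasm in a double membrane, the autophagosome, and delivers it to the lysosome for digestion. The ULK1 kinase complex starts the process, a lipid kinase complex containing BECN1 and ATG14 marks the growing membrane, ATG2 and ATG9 proteins feed it with lipid, and a conjugation system attaches ATG8 proteins (the LC3 and GABARAP families) to it, where receptors such as NBR1 and SQSTM1 tether cargo. The lysosome contributes acid, made by the proton pump V-ATPase, together with hydrolases and membrane proteins. TFEB, TFE3 and MITF are transcription factors known to bind short E-box-like sites near the starts of lysosomal genes, and the growth-promoting kinase mTORC1 holds both them and ULK1 in check. Glucocorticoids kill lymphoid cells, and NOTCH1 signalling is known to feed growth and mTORC1 activity in T-ALL. Transcript levels do not measure autophagic flux.

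The arrays carried the marks of their treatments. DTX1, a direct NOTCH1 target, was at 2960 and 3096 in DMSO and at 651 to 767 on the 4 arrays with PF-03084014, and TSC22D3, a classical glucocorticoid target, was at 430 to 583 without dexamethasone and at 5478 to 7836 with it. T-cell markers were bright: 10 of 11 listed T-ALL markers were measured and all 10 had a mean intensity above 100. Of 8 listed myeloid markers, genes of a lysosome-rich lineage, 7 were measured and 5 of them averaged under 64. The summed myeloid signal was 626 to 668 in DMSO, 521 to 644 with PF-03084014, 459 to 486 with dexamethasone and 361 to 440 in the combination, and its part in the results was not tested. ITGAM carried most of that fall, from 330 and 372 in DMSO to 112 and 102 in the combination, while CSF1R read 86.3 and 99.7 in DMSO and 104 and 210 in the combination, and CD14 was at 4.60 to 19.4 on all arrays. The B-lineage markers (3 of 4 measured) summed to 429 to 475 in DMSO and to 608 to 712 in the combination, which was not tested for its part either. That rise lay in CD79A (297 and 300 to 504 and 585), while MS4A1 read 132 and 83.4 in DMSO and 63.9 and 74.1 in the combination, and PAX5 stayed at 29.4 to 52.9. The second combination array stood apart, with a median intensity of 76.3, where the remaining 7 arrays had medians of 61.8 to 63.9. Its correlation with the first combination array was 0.980, and the other 3 pairs of replicates gave 0.991 to 0.993.

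Across the members, 7 of 41 were called higher in the combination than in DMSO and 0 were called lower. A gene was called when its Benjamini-Hochberg adjusted p, taken over all 19775 genes in limma's moderated test, was under 0.05. The 7 were the initiating kinase ULK1, the lipid kinase subunit ATG14, the lipid transfer proteins ATG2A and ATG2B, the receptor NBR1, the lysosomal membrane protein LAMP1 and the V-ATPase accessory subunit ATP6AP1. They make up 17.1% of the members, where 6.43% of all genes tested were called higher and 5.54% were called lower. Among the 10793 genes with a mean intensity of 100 or more, a class that holds 37 of the 41 members, 10.4% were called higher and 9.26% lower. The count depended on single arrays: it fell when either DMSO array or either dexamethasone array was left out. It rose, with calls in both directions, without the first combination array. Without the second combination array most of the 7 were no longer called and other members were. The share of all genes called in each of these fits is not given here, so the changes cannot be ascribed to the members. When the arrays were shifted to a common median, 4 were called higher (ULK1, ATG2A, ATG2B and NBR1) and 1, GLA, was called lower. The count was 3 with array weights and 0 when the fit held only the 4 arrays compared, and ATG14 was called under 8 and ATP6AP1 under 7 of the 20 alternatives. GLA, not called in the fit above, was called lower under 7 of the 20, as often as ATP6AP1. The direction of each of the 7 stayed the same under all 20. Most of the 20 could not reverse it: both combination arrays lay above both DMSO arrays, and many settings leave the estimates as they were.

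No member was called for either compound alone. For PF-03084014 against DMSO limma called 0 of 41, where 0.824% of all genes were called, and 11 members had an unadjusted p under 0.05 (26.8% of members, 13.3% of all genes and 19.3% of those with a mean of 100 or more). All 11 were higher: ULK1, ATG14, ATG2A, ATG16L1, NBR1, LAMP1, LAMP2, CTSL, HEXA, ATP6V1H and ATP6AP1. The nearest to a call were LAMP1 with an adjusted p of 0.0523, ATG2A with 0.0539 and NBR1 with 0.0591 in limma. For dexamethasone against DMSO limma called 0 members, where 0.101% of all genes were called, and 4 had an unadjusted p under 0.05 (9.76% of members, 8.96% of all genes and 11.8% of the brighter ones), a share near the background: ATG2A, NBR1 and ATP6V1H were higher and TFEB was lower. The 3 comparisons with DMSO share the same 2 DMSO arrays, so their values are set side by side and are not independent of each other.

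The arrays themselves can be compared without a model. With PF-03084014, both arrays lay above both DMSO arrays for 25 members (61.0%) and below both for 1, the alpha-galactosidase GLA. Over all genes 26.9% lay above and 19.7% below, and over genes with a mean of 100 or more the shares were 35.3% and 24.1%. With dexamethasone, 16 members (39.0%) lay above, beside 24.9% of all genes and 33.7% of the brighter ones, and 2 below, TFEB and GLA, beside 17.7% and 19.0%. In the combination 18 members (43.9%) lay above, beside 29.1% of all genes and 32.8% of the brighter ones, and 4 lay below: ATG12, SQSTM1, CTSB and GLA, beside 21.5% and 29.9%. The median log2 difference over the 41 members was 0.15 with PF-03084014, 0.07 with dexamethasone and 0.11 in the combination, beside 0.02, 0.01 and 0.06 over all genes. The combination median turned to -0.02 when the arrays were shifted to a common median, a step that moved the median of all genes from 0.06 to -0.07, while that of PF-03084014 stayed at 0.15 with 33 of 41 members positive.

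**Figure D1:**
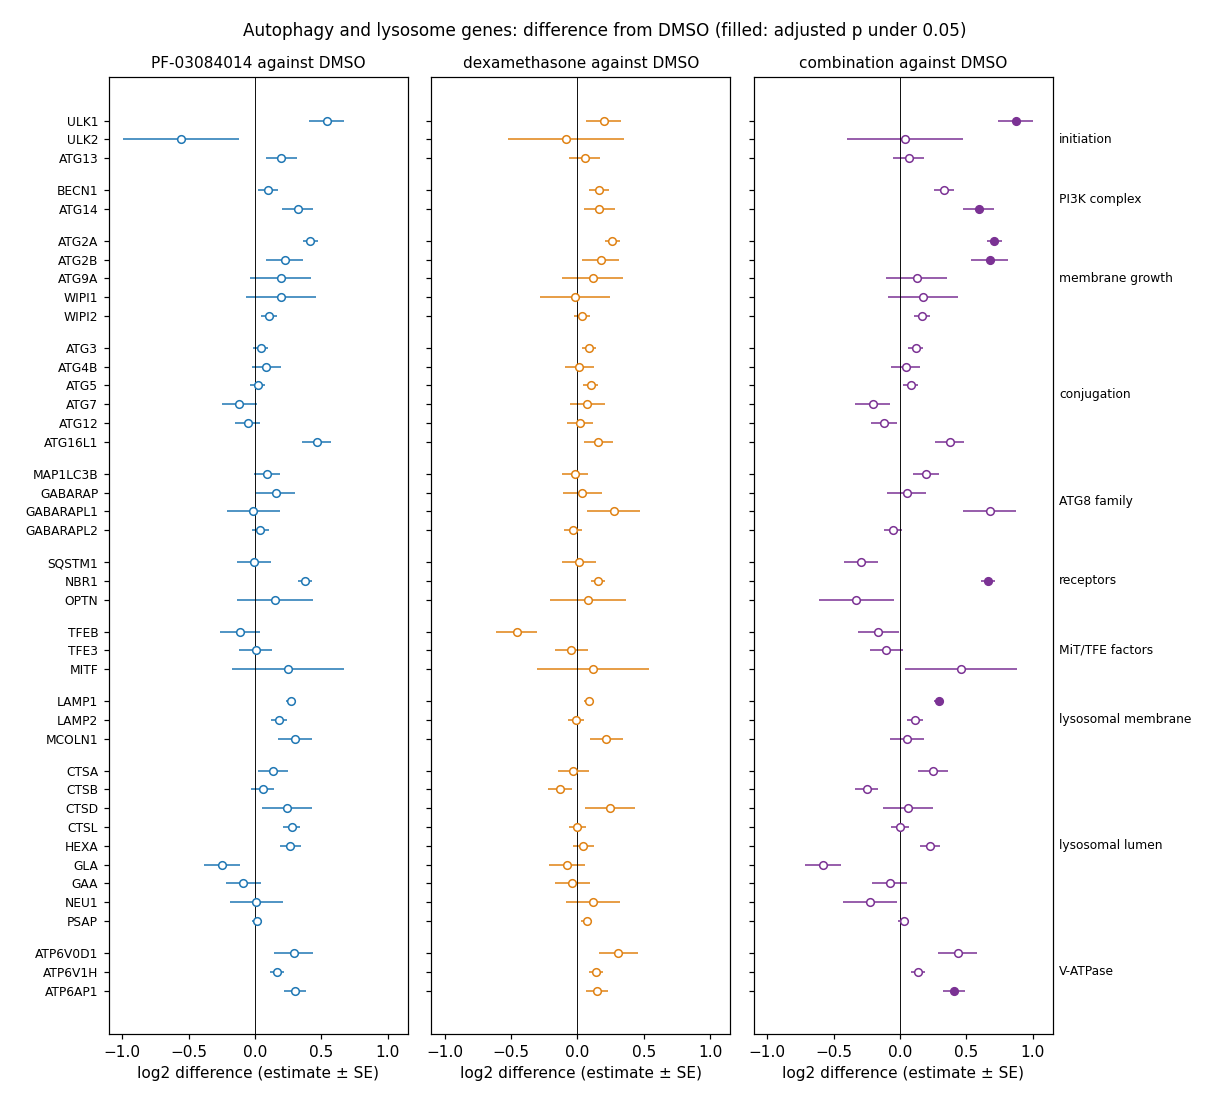
Log2 difference from DMSO (estimate ± SE of the limma fit, 2 arrays per group) for each of the 41 members, grouped by role, with a panel for each treatment. Filled circles mark an adjusted p under 0.05: there are 7 in the combination panel, all to the right of 0, and none in the panels of the single compounds.

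Of the 3 initiation genes, ULK1 rose and ULK2 and ATG13 were not called. ULK1, the kinase that starts autophagosome formation, had intensities of 197 and 234 in DMSO, 286 and 342 with PF-03084014, 251 and 242 with dexamethasone, and 382 and 405 in the combination. The 4 groups did not overlap: DMSO was lowest, followed by dexamethasone, PF-03084014 and the combination. The log2 difference between the combination and DMSO was 0.87 ± 0.13 (SE, limma adjusted p = 0.0178), a 1.83-fold rise, and between the combination and dexamethasone it was 0.67 ± 0.13 (adjusted p = 0.0482). Against DMSO, PF-03084014 alone gave 0.54 (adjusted p = 0.173) and dexamethasone alone 0.20 (adjusted p = 0.792). The combination differed from PF-03084014 by 0.33 (limma adjusted p = 0.274), which was not called, and PF-03084014 against dexamethasone was not tested. ATG13, the subunit that binds ULK1, stayed between 475 and 603 on all 8 arrays. ULK2, a kinase related to ULK1, was dim, at 32.2 to 86.4, and its replicates were far apart.

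Of the 2 members of the lipid kinase complex, ATG14 rose and BECN1 missed the threshold. ATG14, the subunit that directs the complex to autophagy, was at 353 and 414 in DMSO, 463 and 494 with PF-03084014, 452 and 406 with dexamethasone, and 611 and 543 in the combination. The combination arrays were the highest of the 8, and the dexamethasone and DMSO arrays overlapped. The combination exceeded DMSO by 0.59 ± 0.12 on the log2 scale (limma adjusted p = 0.0333). BECN1, the scaffold of the complex, was at 2069 and 1985 in DMSO, 2248 and 2095 with PF-03084014, 2170 and 2361 with dexamethasone, and 2413 and 2683 in the combination. Its combination arrays too were the highest, with a log2 difference from DMSO of 0.33 ± 0.08 (limma adjusted p = 0.0508). Another BECN1 probe set, with a mean of 1055, gave 0.13 for the same difference (adjusted p = 0.387 in a limma fit over all probe sets).

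Of the 5 genes for membrane growth, ATG2A and ATG2B rose in the combination, and ATG9A, WIPI1 and WIPI2 were not called. ATG2A and ATG2B encode lipid transfer proteins that act as bridges between the endoplasmic reticulum and the growing membrane. ATG2A was at 456 and 485 in DMSO, 625 and 630 with PF-03084014, 579 and 548 with dexamethasone, and 768 on both combination arrays. The 4 groups did not overlap: DMSO was lowest, followed by dexamethasone, PF-03084014 and the combination. Between neighbours in that order, dexamethasone differed from DMSO by 0.26 (limma adjusted p = 0.277) and the combination from PF-03084014 by 0.29 (adjusted p = 0.0715), neither of them called, and PF-03084014 against dexamethasone was not tested. The combination exceeded DMSO by 0.71 ± 0.06 (limma adjusted p = 0.00392) and dexamethasone by 0.45 ± 0.06 (adjusted p = 0.0190). ATG2B was at 880 and 977 in DMSO, 959 and 1225 with PF-03084014, 999 and 1095 with dexamethasone, and 1392 and 1574 in the combination. The combination arrays were above all others, by 0.67 ± 0.14 against DMSO (limma adjusted p = 0.0387), while PF-03084014 and DMSO overlapped. WIPI2, a reader of the lipid made by the BECN1 complex, lay within 2781 to 3343. ATG9A, a lipid scramblase, was at 430 and 270 in the 2 combination arrays, which span the values of the other 6.

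None of the 6 conjugation genes was called in any comparison. ATG16L1, which places the conjugation machinery on the membrane, had the lowest p of the class in the combination, with 222 and 229 in DMSO, 290 and 334 with PF-03084014, 247 and 257 with dexamethasone, and 278 and 308 in the combination. All 6 treated arrays exceeded both DMSO arrays, and the PF-03084014 and combination arrays overlapped. Its log2 difference from DMSO was 0.47 ± 0.11 with PF-03084014 (limma adjusted p = 0.159) and 0.37 ± 0.11 in the combination (adjusted p = 0.0948). For the enzymes ATG3, ATG4B and ATG7, and for ATG12 and ATG5, which are joined to each other, the combination differed from DMSO by -0.21 (ATG7) to 0.12 (ATG3).

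None of the 4 ATG8-family genes was called by its chosen probe set. GABARAPL1, whose product coats autophagosomes and binds receptors, was at 289 and 206 in DMSO, 227 and 257 with PF-03084014, 278 and 312 with dexamethasone, and 355 and 428 in the combination. The combination arrays were the highest of the 8, but the DMSO arrays were far apart, and the log2 difference of 0.68 ± 0.20 had a limma adjusted p of 0.0972. Its other probe set, with a mean of 131, gave 0.09 for the same difference. MAP1LC3B, the LC3 gene behind the usual autophagosome marker, had 2 probe sets of nearly equal brightness that differed. The chosen set, at 2381 and 2059 in DMSO and 2599 and 2466 in the combination, gave 0.19 ± 0.10 (limma adjusted p = 0.266). The set with a mean of 2212 gave 0.67 and was called in a limma fit over all probe sets (adjusted p = 0.00620), so whether MAP1LC3B is counted as raised depends on the probe set. GABARAP and GABARAPL2 differed by 0.05 and -0.05, and GABARAP had the values 4676 and 3385 on the 2 combination arrays.

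The 3 cargo receptors did not move together. NBR1, a receptor for ubiquitin-tagged cargo, was at 1774 and 1864 in DMSO, 2274 and 2445 with PF-03084014, 2008 and 2033 with dexamethasone, and 2807 and 2958 in the combination. The 4 groups did not overlap and fell in the same order as for ULK1 and ATG2A. The share of all genes with 4 groups apart in this order is not given here, so the order cannot be called particular to these members. NBR1 rose by 0.66 ± 0.05 in the combination against DMSO (limma adjusted p = 0.00395) and by 0.51 ± 0.05 against dexamethasone (adjusted p = 0.0146). With PF-03084014 alone the log2 difference was 0.37 (adjusted p = 0.0591) and with dexamethasone alone 0.15 (adjusted p = 0.494). Between the combination and PF-03084014 it was 0.29 (limma adjusted p = 0.0652), which was not called, and PF-03084014 against dexamethasone was not tested. SQSTM1, also called p62, the other main receptor for ubiquitin-tagged cargo, was at 1375 and 1224 in DMSO, 1289 and 1287 with PF-03084014, 1368 and 1247 with dexamethasone, and 1190 and 938 in the combination. Both combination arrays were below all 6 others, with a log2 difference from DMSO of -0.30 ± 0.13 (limma adjusted p = 0.205). OPTN, a receptor known from mitochondrial and bacterial clearance, was dim, with a mean of 106, and its combination arrays read 106 and 66.6.

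**Figure D2:**
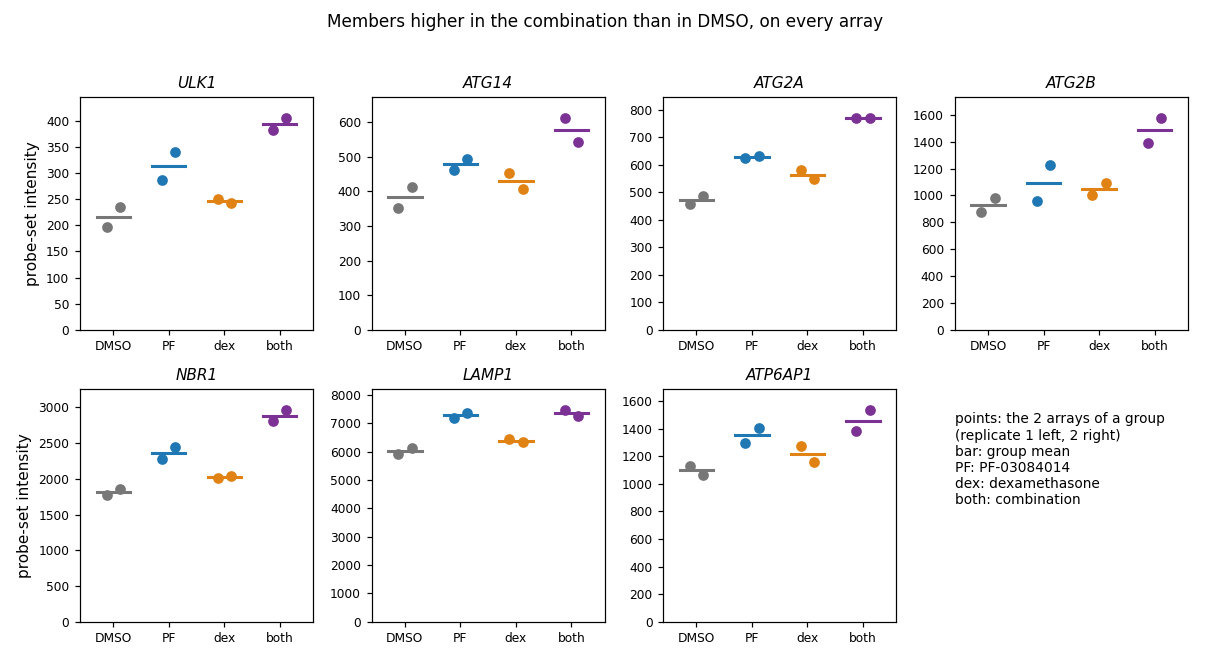
Probe-set intensity (linear axis from 0) of the 7 called members on each of the 8 arrays, with the group mean as a bar. In all 7 panels both combination arrays lie above both DMSO arrays, and for ULK1, ATG2A and NBR1 the 4 groups do not overlap. The share of all genes with 4 groups apart is not given here.

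None of the 3 transcription factors of the TFEB family was called in any comparison. MITF, which had the lowest p of the class in the combination, was dim and its replicates disagreed there, with 52.2 and 67.1 in DMSO, 73.9 and 66.7 with PF-03084014, 57.7 and 71.3 with dexamethasone, and 53.3 and 124 in the combination. TFEB, named here after its values were seen, was at 297 and 328 in DMSO, 320 and 260 with PF-03084014, 214 and 241 with dexamethasone, and 257 and 302 in the combination. Both dexamethasone arrays were the lowest of the 8. The log2 difference between dexamethasone and DMSO was -0.46 ± 0.15 (limma adjusted p = 0.470), and in the combination it was -0.16. TFE3, the family member with bright signal, stayed between 2306 and 2964. These factors are known to be regulated by phosphorylation and entry into the nucleus, which the arrays do not read.

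Of the 3 lysosomal membrane proteins LAMP1 rose, and LAMP2 and MCOLN1 were not called. LAMP1, an abundant glycoprotein of the lysosomal membrane, was at 5911 and 6131 in DMSO, 7193 and 7360 with PF-03084014, 6429 and 6329 with dexamethasone, and 7456 and 7270 in the combination. The 4 arrays with PF-03084014 stood above the 4 without it, and the combination arrays overlapped those of PF-03084014 alone. The combination exceeded DMSO by 0.29 ± 0.04 (limma adjusted p = 0.0109) and dexamethasone by 0.21 ± 0.04 (adjusted p = 0.0374), and it differed from PF-03084014 by 0.02 ± 0.04 (adjusted p = 0.843). All 4 LAMP1 probe sets had a positive difference between the combination and DMSO, from 0.29 to 0.49. LAMP2, a related glycoprotein, was at 4726 and 4850 in DMSO, 5419 and 5455 with PF-03084014, 4503 and 5030 with dexamethasone, and 5057 and 5302 in the combination. Its PF-03084014 arrays were the highest of the 8, with a log2 difference from DMSO of 0.18 ± 0.06 (limma adjusted p = 0.293). MCOLN1, a calcium channel of the lysosome, was at 172 and 164 in DMSO, 223 and 192 with PF-03084014, 204 and 187 with dexamethasone, and 170 and 178 in the combination. Each single treatment lay above DMSO and the combination overlapped DMSO, and the departure from additivity was -0.47 ± 0.18 (limma adjusted p = 0.540).

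The promoters of the members were searched for CACGTG, the palindromic E-box core that TFEB-family factors and other basic helix-loop-helix factors such as MYC bind, and for TCACGTG, which contains it, on both strands. The windows run from 250 bases before to 50 bases after the gene start in RefSeq (GRCh38.p14), and 36 of the 41 members had an entry. Of these, 9 (25.0%) held CACGTG, as did 8.77% of 27305 genes with a window, and the same 9 held TCACGTG, as did 4.49% of all genes. The motif was in 7 of the 10 lysosomal members with a window and in 2 of 23 autophagy members. LAMP1 and ATG14 were the 2 called members that held it. LAMP1 had 6 copies, of which 5 lie wholly upstream of the start and the sixth spans it, and ATG14 had 1. GAA, which encodes lysosomal acid alpha-glucosidase, and MCOLN1, neither of them called, are shown beside them and were picked after their values were seen. The stretches below are printed 5′ to 3′ in the direction of transcription and end at the base before the gene start, with CACGTG in capitals; LAMP1 is at chr13:113297007-113297238 (plus strand), ATG14 at chr14:55411831-55411891 (minus strand), GAA at chr17:80101465-80101580 (plus strand) and MCOLN1 at chr19:7522543-7522623 (plus strand).
LAMP1: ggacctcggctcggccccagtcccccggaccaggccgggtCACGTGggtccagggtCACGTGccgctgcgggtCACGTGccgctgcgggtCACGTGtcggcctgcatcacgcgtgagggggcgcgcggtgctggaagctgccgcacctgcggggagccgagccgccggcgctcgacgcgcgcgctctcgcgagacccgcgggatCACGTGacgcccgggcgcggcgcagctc
ATG14: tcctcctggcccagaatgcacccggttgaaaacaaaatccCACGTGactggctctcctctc
GAA: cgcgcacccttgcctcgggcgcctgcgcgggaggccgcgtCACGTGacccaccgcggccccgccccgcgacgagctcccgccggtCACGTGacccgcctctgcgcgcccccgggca
MCOLN1: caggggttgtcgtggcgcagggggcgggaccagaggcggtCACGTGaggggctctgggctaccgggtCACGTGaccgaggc
The GAA stretch holds 2 copies, and GAA intensity stayed between 163 and 196 on all 8 arrays. The 9 members with the motif had a median log2 difference between the combination and DMSO of 0.12, and the 27 with a window and no motif had 0.08. With PF-03084014 alone the medians were 0.24 and 0.11, and these differences between holders and others were not tested. ULK1, ATG2A, ATG2B, NBR1 and ATP6AP1 were called and do not have these letters in their windows.

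**Figure D3:**
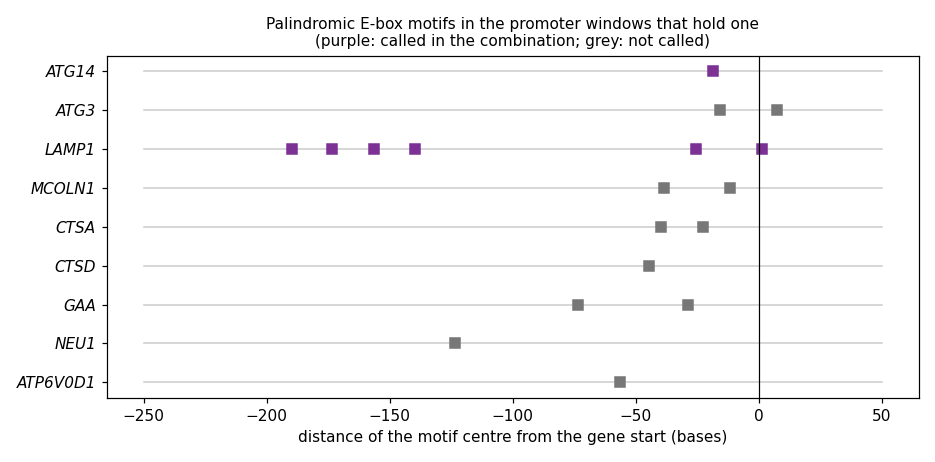
Distance in bases of the centre of each CACGTG match from the gene start, for the 9 members whose promoter window (grey line, 250 bases before to 50 after the start) holds one. LAMP1 has 6 matches, the most of the 9, and the 2 genes called in the combination, ATG14 and LAMP1, are drawn in purple.

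None of the 9 lysosomal lumen genes, enzymes and the sphingolipid activator precursor PSAP, was called in any comparison by its chosen probe set. GLA, the alpha-galactosidase deficient in Fabry disease, came nearest, with 1278 and 1249 in DMSO, 1208 and 932 with PF-03084014, 1248 and 1142 with dexamethasone, and 894 and 797 in the combination. Both combination arrays were the lowest of the 8, at a log2 difference from DMSO of -0.58 ± 0.14 (limma adjusted p = 0.0536). CTSB, a cysteine protease, was at 1661 and 1434 in DMSO, 1572 and 1645 with PF-03084014, 1450 and 1370 with dexamethasone, and 1356 and 1238 in the combination, again lowest in the combination, at -0.25 ± 0.09 (limma adjusted p = 0.136). HEXA, a beta-hexosaminidase subunit, was at 1125 and 1153 in DMSO, 1351 and 1390 with PF-03084014, 1209 and 1141 with dexamethasone, and 1431 and 1238 in the combination. Its 4 arrays with PF-03084014 stood above the 4 without it, at 0.27 ± 0.08 for PF-03084014 against DMSO (limma adjusted p = 0.228). In the combination the chosen HEXA set gave 0.22 against DMSO. Another HEXA set, with a mean of 122, gave 0.96 and was called in a limma fit over all probe sets (adjusted p = 0.0406). The other 6 genes of the class, CTSA, CTSD, CTSL, GAA, NEU1 and PSAP, differed from DMSO in the combination by -0.23 (NEU1) to 0.25 (CTSA). CTSL, a cysteine protease, was read at 3.52 to 20.5, around the floor of 16 below which intensities were not ordered, so its low p with PF-03084014 rests on values of 18.3 and 20.5 against that floor.

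All 3 V-ATPase members were above DMSO on both arrays of every treatment, and ATP6AP1 was called in the combination. Over all genes, 26.9% lay above with PF-03084014, 24.9% with dexamethasone and 29.1% in the combination. Among the brighter genes these shares were 35.3%, 33.7% and 32.8%. The share of all genes above DMSO under all 3 treatments is not given here. Of 14 further V-ATPase genes, 8 lay above with each treatment, and 1, 2 and 1 lay below, in the same order. ATP6AP1, an accessory subunit needed to assemble the pump, was at 1130 and 1065 in DMSO, 1298 and 1406 with PF-03084014, 1277 and 1157 with dexamethasone, and 1380 and 1532 in the combination. The combination and PF-03084014 arrays overlapped, and the combination exceeded DMSO by 0.41 ± 0.08 (limma adjusted p = 0.0378). ATP6V0D1, a subunit of the membrane sector, was at 1220 and 1300 in DMSO, 1537 and 1545 with PF-03084014, 1583 and 1533 with dexamethasone, and 1997 and 1448 in the combination. The difference of 0.43 ± 0.15 in the combination was not called (limma adjusted p = 0.131), and its 2 arrays there enclosed those of both single treatments. ATP6V1H, a subunit of the catalytic sector, ranged from 1659 in DMSO to 1915 in the combination. Under quantile normalization and when the arrays were brought to a common median, the 3 V-ATPase members kept a positive difference from DMSO in the combination.

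Adding PF-03084014 to dexamethasone raised 4 members, ULK1, ATG2A, NBR1 and LAMP1, and lowered 0 in limma's test. That is 9.76% of the members, where 3.27% of all genes were called higher and 3.99% lower. The 4 were among the 7 called against DMSO, and both comparisons use the same combination arrays. These calls were lost when either dexamethasone array was left out and became fewer without a DMSO or a PF-03084014 array. They grew in number, in both directions, without the first combination array. The share of all genes called in each of these fits is not given here. The count was 0 when the arrays were shifted to a common median. Both combination arrays lay above both dexamethasone arrays for 16 members (39%, beside 27.8% of all genes and 29.5% of the brighter ones). They lay below both for 7 (17.1%, beside 23.4% and 33.7%). Adding dexamethasone to PF-03084014 gave 0 called members, where 2.87% of all genes were called, and 7 had an unadjusted p under 0.05, 5 of them higher and 2 lower. That is 17.1% of members, beside 18.7% of all genes and 26.5% of the brighter ones, so no more than the background. Both combination arrays lay above both PF-03084014 arrays for 9 members (22%, beside 23.2% of all genes and 24.4% of the brighter ones). They lay below both for 8 (19.5%, beside 20.1% and 28.1%). Without the first combination array, members were called there in both directions, and the share of all genes called in that fit is not given here.

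The departure from additivity, the combination difference minus the sum of both single differences, was called for 0 members and for 0 of all genes in limma. An unadjusted p under 0.05 was found for 2 members, MCOLN1 and CTSL, both below 0 (4.88% of members, beside 9.09% of all genes). For the called members it was 0.13 ± 0.19 for ULK1, 0.10 ± 0.16 for ATG14, 0.03 ± 0.08 for ATG2A, 0.28 ± 0.20 for ATG2B, 0.14 ± 0.08 for NBR1, -0.07 ± 0.05 for LAMP1 and -0.04 ± 0.12 for ATP6AP1. Each of the 7 was within 2 standard errors of 0. Both combination arrays lay above all 6 other arrays for 8 members: ULK1, BECN1, ATG14, ATG2A, ATG2B, MAP1LC3B, GABARAPL1 and NBR1. That is 19.5% of the members, beside 13.8% of all genes and 16.6% of the brighter ones, so near the share of the brighter genes. The combination arrays lay below all 6 for 3 members (7.32%, beside 10.8% of all genes and 17.3% of the brighter ones): SQSTM1, CTSB and GLA.

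The median absolute difference between the 2 replicates over the members was 0.17 on the log2 scale in the combination and 0.07 to 0.11 in the other groups. The second combination array was below the first for 26 of 41 members (63.4%, beside 42.4% of all genes and 54.4% of those with a mean of 100 or more), and 10 were lower there by more than 1.2-fold, compared with 1 to 4 in the other groups. The median of the second minus the first array over the members was -0.10 on the log2 scale in the combination and -0.015 to -0.0023 in the other groups. GABARAP, ATP6V0D1, ATG9A and NEU1 were among the members with the wider gaps. ATG2A, NBR1, ULK1 and LAMP1 had SDs of 0.00035, 0.05, 0.06 and 0.03 on the log2 scale over the 2 combination arrays. ATG14, ATG2B and ATP6AP1, which were also called, had 0.12, 0.12 and 0.11 there, and the median SD over the members was 0.12. A small spread between replicates helps a gene to be called, so these values are no separate check of the calls. In bulk RNA, fewer cells of a kind and less RNA per cell cannot be told apart.

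**Figure D4:**
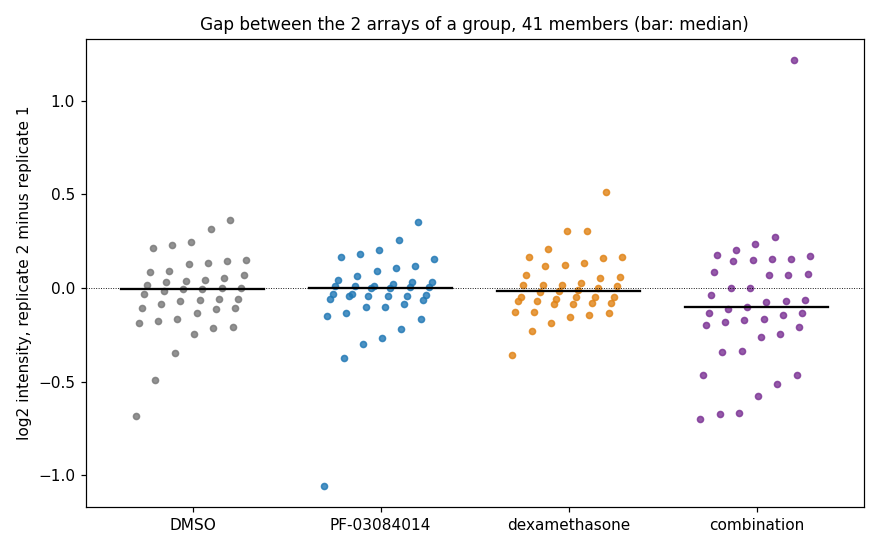
Log2 intensity of the second minus the first array of each group, with a point for each of the 41 members and a bar at the median. The points spread most in the combination, where the median is -0.10 and 10 members are lower on the second array by more than 1.2-fold.

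The probe set chosen for a gene mattered for some members. Of the 41 members, 19 had more than 1 probe set with a mean intensity above 100, and for 14 of these 19 all such sets had the same sign of the combination against DMSO, for 10 of 19 the same sign of PF-03084014 against DMSO. The second NBR1 set, with a mean of 649, gave 0.59 (adjusted p = 0.00704 in a limma fit over all probe sets), beside 0.66 for the chosen set. The second ATG2B set, with a mean of 547, gave 0.48 (adjusted p = 0.0313). In that limma fit some calls were lost. Against DMSO these were the chosen ATG2B set (adjusted p = 0.0538) and ATP6AP1 (0.0512), and against dexamethasone ULK1 (0.0589) and LAMP1 (0.0548). The second TFEB set, with a mean of 140, gave -0.77 (adjusted p = 0.0547) where the chosen set gave -0.16. ULK1, ATG14, ATG2A and ATP6AP1 were measured by a single set each.

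**Figure D5:**
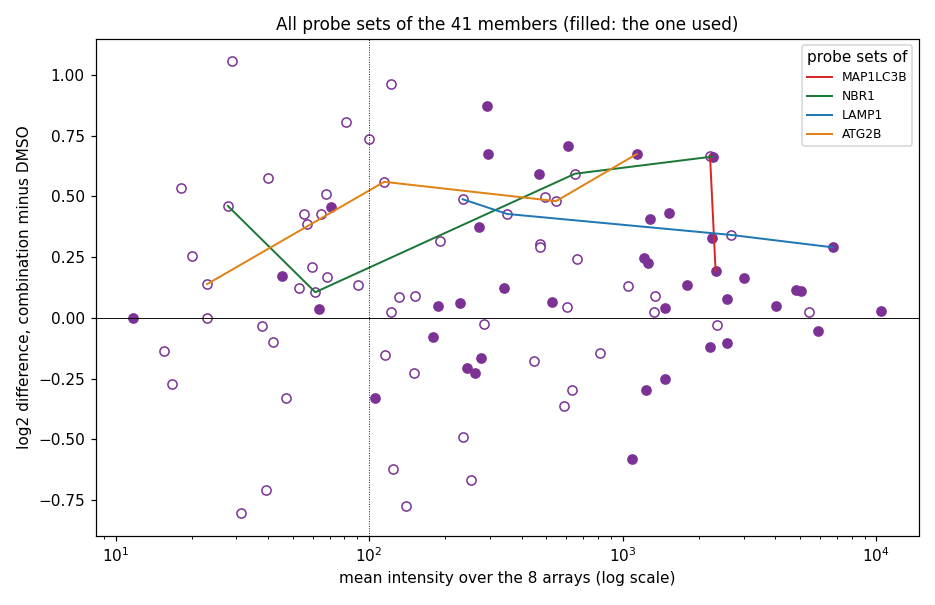
Log2 difference between the combination and DMSO against mean intensity (log axis) for every probe set of the 41 members, filled where the set was used. Lines join the sets of MAP1LC3B, NBR1, LAMP1 and ATG2B, and the dotted line marks a mean of 100: the 2 bright MAP1LC3B sets lie at 0.19 and 0.67.

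Other genes of the same pathways, none of them members, were read from lists of autophagy, lysosome and V-ATPase genes. Of 34 further autophagy genes, 7 were called higher and 3 lower in the combination against DMSO, where 6.43% of all genes were called higher and 5.54% lower. Among the called genes the largest rises were in TP53INP1, a p53-induced protein that binds ATG8 proteins, at 28.6 and 37.6 in DMSO and 246 and 401 in the combination (log2 3.26 ± 0.28, limma adjusted p = 0.00453), TECPR1 (0.80) and EPG5 (0.68), both of which act in fusion of autophagosomes with lysosomes. The called falls were in VMP1 (-1.52), a membrane protein of the endoplasmic reticulum, ATG16L2 (-0.64) and ATG10 (-0.48), the enzyme that joins ATG12 to ATG5. The DMSO arrays of VMP1 were far apart, at 348 and 170. It read 85.0 and 85.1 with PF-03084014 alone, 135 and 125 with dexamethasone, and 86.0 and 84.1 in the combination. Of 45 measured lysosome genes, 10 were called higher and 1 lower. SMPD1, the acid sphingomyelinase, was at 302 and 235 in DMSO and 570 and 577 with PF-03084014. It read 289 and 276 with dexamethasone, and 691 and 665 in the combination. SMPD1 was called with PF-03084014 alone (1.11 ± 0.13, limma adjusted p = 0.0381). It was 1 of the 121 listed genes counted below, where 0.824% of all genes were called, a count near the background. ASAH1, the acid ceramidase (0.70), and GALNS, a sulfatase (0.59), followed SMPD1 in the combination, and ARSB, another sulfatase, fell by 1.75. Of 14 further V-ATPase genes, 3 were called higher and 0 lower: ATP6V0A1 (0.82), ATP6V0E1 (0.48) and ATP6AP2 (0.35). With 28 genes that control mTORC1 added, 28 of 121 listed genes were called in the combination (23 higher, 5 lower), where 1272 of 19775 genes were called higher and 1096 lower. That count fell when any DMSO, PF-03084014 or dexamethasone array was left out. It rose, with calls in both directions, without the first combination array, and the share of all genes called in each of these fits is not given here. With the arrays shifted to a common median it was 13, with 6 higher and 7 lower.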

How the data were processed

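Biotinylated cRNA from 200 ng of total RNA was hybridised to Affymetrix 3′ expression arrays, 1 per sample, per the labels' protocols. The authors deposited linear probe-set intensities for 54675 probe sets, scaled to a similar level on each array. How background, summary and scaling were done is not given in the sources used. Of the probe sets, 41097 name 1 gene in the platform annotation and were used, 1801 name several and 11777 none. Values under 16 were set to 16, log2 was taken, and each of 19775 genes was read from its probe set with the highest mean intensity.

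A limma 3.58.1 model (R 4.3.3) with a mean for each group was fitted to all 8 arrays with an intensity trend, leaving 4 residual degrees of freedom, and p-values were adjusted by Benjamini-Hochberg over all genes (two-sided, called under 0.05). The script was tested on simulated data. The median standard error was 0.177 (0.115 over the members), which together with 2 arrays a group limits the precision. Values for every array were given for each member called in at least 1 comparison and, in a class with none called, for the member with the lowest p in the combination against DMSO; other members were described where their arrays stood apart, after their values were seen. Of the further pathway genes, at most 3 rises and 3 falls per list were named. The members and the lists were chosen with earlier results of these data known. Alternatives covered scaling, floor, filter, probe set, variance model, replicate block, array weights and each array left out. Promoter windows came from RefSeq tables.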

Additional observations from a re-analysis of the deposited data

How the results depend on the processing

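The 11 pairs of a gene and a comparison that were called (7 in the combination against DMSO, 4 against dexamethasone) kept their direction under all 20 alternatives. Most of these could not reverse a sign, because they leave the estimates as they were or only leave out an array where the groups did not overlap. Changes of scaling and of probe set could have done so. Calls changed more often than directions: against DMSO, ATG2A was called under 19 of the 20, NBR1 under 17, LAMP1 under 15, ULK1 under 14, ATG2B under 10, ATG14 under 8 and ATP6AP1 under 7. GLA, not among these pairs, was called lower under 7. Counts of called members in this section take rises and falls together. The count of 7 became 11 without genes of mean intensity under 100 and 3 with array weights. It became 0 with only the arrays of the groups compared, where 4 arrays carry the spread. The count of 4 became 7 without genes of mean intensity under 100, 2 with the mean of all probe sets, 2 without probe sets ending in _x_at or _s_at, 2 without the intensity trend, and 0 with a common median, with array weights and with only the groups compared. For PF-03084014 against DMSO the count of 0 became 1 with a floor of 64, 2 with log2(value + 16), and 3 without dim genes and with array weights. The cause was not tested, and the share of all genes called under each alternative is not given here.

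Leaving out 1 array at a time gave counts of 2 to 13 for the combination against DMSO, 0 to 8 against dexamethasone, 0 to 7 against PF-03084014, 0 to 2 for the departure from additivity, 0 to 1 for PF-03084014 and 0 for dexamethasone. NBR1 gave 0.11 against DMSO without probe sets ending in _s_at, which leaves it to dim sets. With the replicate number as a block the counts were 6, 4 and 1 for the combination against DMSO, dexamethasone and PF-03084014, and 0 elsewhere. Deviations of same-numbered arrays correlated at -0.011 to 0.080 over all genes. With 2 arrays per group these values cannot show whether same-numbered arrays share a culture or a batch.

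Dim members (ULK2, WIPI1, MITF and CTSL, under 100 on average) carry little information on change. Intensities of different probe sets cannot be ranked against each other as transcript levels.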

Other observations

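Genes that control mTORC1, the kinase that restrains autophagy when nutrients are plentiful, were listed as a further group, and 28 of 29 were measured. In the combination against DMSO 3 were called higher and 1 lower, where 6.43% and 5.54% of all genes were. TSC1, a subunit of the complex that turns mTORC1 off, was at 574 and 599 in DMSO, 708 and 742 with PF-03084014, 673 and 732 with dexamethasone, and 960 and 833 in the combination (log2 difference 0.61 ± 0.09, limma adjusted p = 0.0147). LAMTOR3, part of the scaffold that holds mTORC1 on the lysosome, rose by 0.40, and PRKAB1, a subunit of the energy sensor AMPK, rose by 0.29. RRAGD, a Rag GTPase that recruits mTORC1 to the lysosome, was at 1836 and 2204 in DMSO, 1310 and 1131 with PF-03084014, 1836 and 1785 with dexamethasone, and 904 and 869 in the combination (-1.18 ± 0.11, limma adjusted p = 0.00533). The 4 arrays with PF-03084014 were below the 4 without it. With PF-03084014 alone 0 of the 28 were called in limma.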
